A study of Mus musculus with 36 samples.

Results

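The RNA levels of 32 genes of sterol and fatty acid synthesis were examined in mouse pancreatic fibroblasts cultured alone or with tumour cells. The genes were chosen by name from the 39017 genes of the count table, with 21 in a sterol branch and 11 in a fatty acid branch. For 31 of them the symbol in the table was the member's own, and Msmo1, listed under an older symbol, was found by its Ensembl identifier. All 32 passed the filter on low counts, and the rule used names alone, although it was set with earlier results of these data known.

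The fibroblasts were from the C57BL/6 strain, with no allele or treatment named for any group. In 8 groups they had shared a culture with a tumour line for 48 h, and flow sorting on the GFP carried by the tumour cells then parted the cell types. The lines were 7 tumour sub-clones, named E, H, K, M, N, T and V, and KPC1, a name that the labels do not explain. The ninth group was a mono-culture of fibroblasts, and the labels do not say whether it also went through the sorter. The titles of its libraries carry PSC where those of the other groups carry the tumour line. Each group held 4 libraries, 36 in all. Each clone stands for 1 line, and the labels do not say whether the 4 libraries of a group came from separate cultures or animals. The p-values therefore measure the spread between these libraries, which may be technical.

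Cholesterol is built from acetyl-CoA through mevalonate, farnesyl diphosphate and squalene, and fatty acids are built from acetyl-CoA through malonyl-CoA, then lengthened and desaturated. Both routes answer to the transcription factors SREBP-1 and SREBP-2, which sit in the endoplasmic reticulum membrane with SCAP and are released by proteolysis when sterols are low. INSIG proteins hold the SCAP-SREBP complex back when sterols are plentiful, and the gene Insig1 is itself switched on by SREBP. Fibroblasts take up cholesterol from lipoproteins as well as making it, so synthesis, uptake and efflux are read together.

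Library totals ran from 12532122 to 21985538 counts. Levels are given as CPM, counts scaled to the size of each library with TMM factors, unless RPKM is named. The 9 fibroblast markers, among them Col1a1, Pdgfra and Dcn, were above 3 counts in every group and summed to between 10884 and 32040 CPM per library, with the 4 lowest group means in clones H, T and V and in KPC1. The 10 markers of epithelial tumour cells summed to between 0.989 and 1.71 CPM in mono-culture and to between 18.3 and 801 CPM in the co-cultures. Krt8, Krt18 and Krt19 carried most of that sum, whereas Epcam was at 0 in every library of clones E, H, T and V and reached at most 0.495 CPM anywhere. Between 5 and 7 of the 10 exceeded 3 counts in a library of each group, and Cldn4 was at 0 in every group but clone T. Adipocyte markers summed to at most 1.27 CPM, endothelial markers to at most 5.73 CPM and immune markers to at most 15.2 CPM, with Cd3e at 0 throughout. The part of tumour cell RNA in the results below was not tested. Among co-culture libraries the epithelial sum was lowest in clone K replicate 2, at 18.3 CPM, and highest in clone T replicate 1, at 801 CPM. The mean log2 CPM of the sterol members was 6.93 and 6.99 there, and 7.30 to 7.59 in mono-culture. The sum rests mostly on keratins, whose level may differ between the lines, so it does not measure the share of tumour cell RNA. In bulk RNA, fewer cells expressing a gene and less RNA of it per cell cannot be told apart.

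The first comparison asked whether these genes differed between fibroblasts from each co-culture and those from mono-culture. The mono-culture libraries are numbered apart in the titles, and whether they were sorted is not given. A difference from separate handling or sorting cannot be told apart from one made by the tumour cells. Members were called lower with every line and higher with none. With clone V, 27 of the 32 fell, against 28.9% of the 14439 genes tested that were called lower. With KPC1, 27 also fell, against 28.5%. With clone T, 24 fell against 24.7% of all genes, and with clone N, 23 against 19.2%. With clone M, 22 fell, although only 10.8% of all genes were called lower there. With clone H, 17 fell against 26.4% of all genes, with clone K 14 against 8.69%, and with clone E 10 against 15.5%.

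No member was called higher in any of the 8 comparisons by edgeR, and none was higher at an unadjusted p under 0.05, while many other genes were. The share of all genes called higher was 16.5% with clone E, 27.8% with clone H, 10.4% with clone K, 12.2% with clone M, 19.7% with clone N, 25% with clone T, 29.4% with clone V and 30.5% with KPC1. DESeq2 and limma-trend on RPKM also called none higher. The 8 comparisons share the 4 mono-culture libraries, so their counts are not independent of each other. Mono-culture replicate 1 was the lowest of its group for 20 of 21 sterol members and for 11 of 11 fatty acid members, so it lay nearest to the co-cultures. Of the 164 calls, 131 held whichever library was left out.

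**Figure D1:**
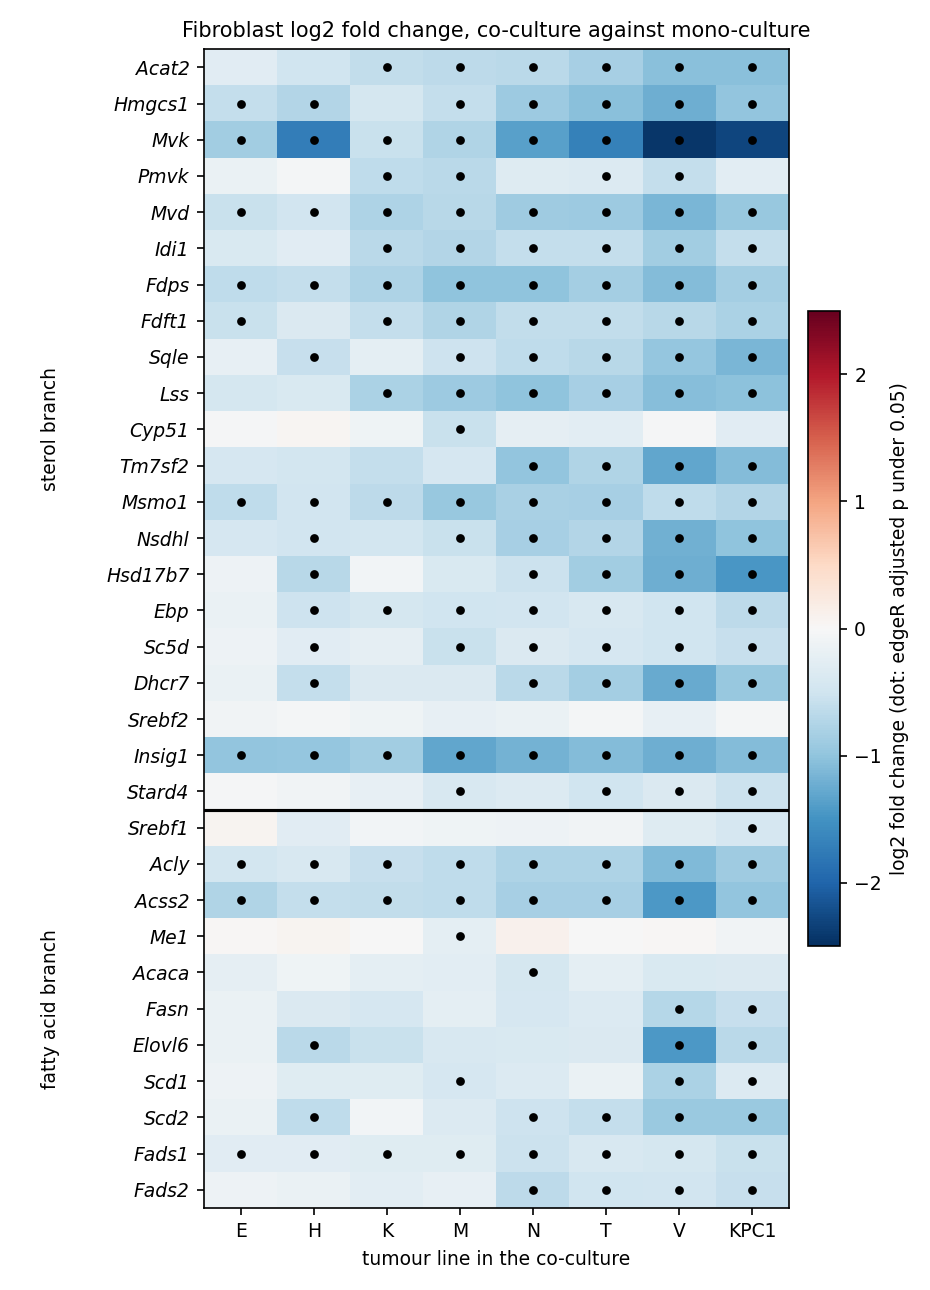
Log2 fold change of each of the 32 members (rows) in each co-culture against mono-culture (columns). Blue is lower and red higher in co-culture, a dot marks an adjusted p under 0.05 in edgeR, and the black line parts the 21 sterol from the 11 fatty acid members. The deepest blue is Mvk with clone V at -2.44 and with KPC1 at -2.29, the columns fill with dots from clone E (10) to clone V and KPC1 (27 each), and the rows of Srebf2, Srebf1 and Me1 stay pale.

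Because the members fell together, the stretch before the start of transcription is shown for 6 of them that span the range of responses: Mvk, Hmgcs1, Insig1 and Acss2, which were called in 7 or 8 co-cultures, Fasn, called in 2, and Srebf2, called in none. Each is the 150 bases up to the base before the RefSeq start in build GRCm38.p6 (mm10), written 5′ to 3′ on the strand of the gene. Capitals mark 4 motifs searched on both strands, namely TCACNCCAC (a sterol regulatory element, the site of SREBP), CCAAT (the NF-Y box), GGGCGG (a GC box, bound by Sp1) and CACGTG (an E-box). The positions are chr13:119690201-119690350, plus strand for Hmgcs1, chr5:114444119-114444268, plus strand for Mvk, chr5:28071262-28071411, plus strand for Insig1, chr15:82147119-82147268, plus strand for Srebf2, chr2:155517893-155518042, plus strand for Acss2, and chr11:120824548-120824697, minus strand for Fasn. In Fasn a forward and a reverse CCAAT share bases.
Hmgcs1: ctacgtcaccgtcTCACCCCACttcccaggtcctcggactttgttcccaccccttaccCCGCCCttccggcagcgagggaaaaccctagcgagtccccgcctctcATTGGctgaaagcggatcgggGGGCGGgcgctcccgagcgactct
Mvk: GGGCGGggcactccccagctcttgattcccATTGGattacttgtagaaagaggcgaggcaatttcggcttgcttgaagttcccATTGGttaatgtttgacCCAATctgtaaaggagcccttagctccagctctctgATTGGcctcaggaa
Insig1: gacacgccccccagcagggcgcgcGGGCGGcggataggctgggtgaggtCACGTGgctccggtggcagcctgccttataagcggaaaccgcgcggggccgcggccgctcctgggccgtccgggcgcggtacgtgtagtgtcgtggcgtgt
Srebf2: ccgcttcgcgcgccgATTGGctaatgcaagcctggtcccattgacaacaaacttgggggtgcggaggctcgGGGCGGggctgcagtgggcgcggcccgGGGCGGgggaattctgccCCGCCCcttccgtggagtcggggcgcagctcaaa
Acss2: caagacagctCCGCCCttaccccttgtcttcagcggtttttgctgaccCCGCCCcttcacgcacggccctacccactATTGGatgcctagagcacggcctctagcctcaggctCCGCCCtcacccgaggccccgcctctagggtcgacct
Fasn: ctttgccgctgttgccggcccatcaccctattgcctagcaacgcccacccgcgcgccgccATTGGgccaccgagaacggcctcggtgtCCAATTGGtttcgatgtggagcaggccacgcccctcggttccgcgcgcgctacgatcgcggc

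RefSeq windows of 300 bases, 250 before and 50 after the start, were at hand for 25 members, 17 sterol and 8 fatty acid. None was given for Fdps, Fdft1, Sqle, Stard4, Scd1, Scd2 and Fads1. CCAAT was in a window of 16 of the 17 sterol members and 5 of the 8 fatty acid members, against 41.0% of 26994 genes. GGGCGG had the same counts, 16 of 17 and 5 of 8, against 38.2% of genes. CACGTG was in 4 of 17 sterol members, Insig1, Sc5d, Hsd17b7 and Dhcr7, and in 0 of 8 fatty acid members, against 8.09% of genes. The strict TCACNCCAC was in 1 member, Hmgcs1, where it read TCACCCCAC 137 bases before the start, against 1.44% of genes. Mvk held 4 copies of CCAAT in the stretch above and Srebf2, which was not called, held 1 CCAAT and 3 GGGCGG. The same stretch of Elovl6, called in 3 co-cultures and not shown above, held 0 of each motif. That of Cyp51, called in 1 and also not shown, held 1 CCAAT and 1 GGGCGG. These are matches of letters, and whether any factor bound there was not measured.

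Mevalonate enzymes fell with every line. All 7 enzymes from Acat2 to Fdps were called lower with clones M, T and V, 6 of 7 with clones K and N and with KPC1, and 4 of 7 with clones E and H. Mvk, mevalonate kinase, fell from 1.47-fold with clone K to 5.43-fold with clone V. Mvk stood at 73.3, 90.1, 87.3 and 89.7 CPM in the 4 mono-culture libraries. With clone E, Mvk was at 53.05, 51.8, 42.8 and 37.4 CPM, with clone H at 31.7, 23.7, 23.5 and 23.4, with clone K at 58.7, 60.1, 63.8 and 48.9, and with clone M at 60.2, 55.6, 49.4 and 37.1. With clone N, Mvk was at 39.5, 33.2, 32.4 and 27.6 CPM, with clone T at 33.6, 19.8, 24.8 and 27.6, with clone V at 13.4, 17.9, 13.7 and 17.6, and with KPC1 at 18.1, 11.8, 19.96 and 19.6. All 32 co-culture libraries lay below the 4 mono-culture libraries. The log2 fold change of Mvk was -0.88 (SE 0.16, adjusted p = 0.00011) with clone E, -1.73 (SE 0.17) with clone H, -0.56 (SE 0.16, adjusted p = 0.014) with clone K and -0.75 (SE 0.16) with clone M. It was -1.36 with clone N, -1.69 with clone T, -2.44 (SE 0.17, adjusted p = 3.1e-12) with clone V and -2.29 with KPC1. Without clone K replicate 4 the adjusted p for Mvk with clone K was 0.0522.

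Hmgcs1, the synthase that makes HMG-CoA, stood at 452, 551, 592 and 591 CPM in mono-culture. With clone E, Hmgcs1 was at 364, 352, 388 and 345 CPM, with clone H at 354, 299, 346 and 311, with clone K at 365, 370.4, 499 and 378, and with clone M at 378, 361, 387 and 315. With clone N, Hmgcs1 was at 278, 282, 286 and 314 CPM, with clone T at 295, 219.8, 257 and 289.6, with clone V at 162, 216, 274 and 289, and with KPC1 at 307, 147, 301 and 347. Of the 32 co-culture libraries, 31 lay below the mono-culture libraries, and clone K replicate 3 overlapped them. Hmgcs1 fell in 7 co-cultures, from -0.59 on the log2 scale with clone E (SE 0.17, adjusted p = 0.0079) to -1.22 with clone V (SE 0.17, adjusted p = 5.4e-07). With clone K it was at -0.44 (SE 0.17, adjusted p = 0.069).

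The other mevalonate enzymes shared this direction with smaller ranges. Fdps, farnesyl diphosphate synthase, fell in all 8 co-cultures by log2 fold changes of -0.60 to -1.09, and was among the most abundant members per length at 336 RPKM in mono-culture. Mvd, the decarboxylase that makes isopentenyl diphosphate, also fell in all 8, by -0.49 to -1.14, with an adjusted p of 0.0515 for clone H without mono-culture replicate 3. Acat2, the thiolase of the first step, and Idi1, the isomerase, each fell in 6, reaching -1.04 and -0.86 with clone V. Pmvk, which adds the second phosphate to mevalonate, fell in 4 (K, M, T and V) and was at -0.05 with clone H and -0.27 with KPC1. The call for Pmvk with clone T was lost without any 1 of 23 libraries, with an adjusted p of up to 0.203, and those for Acat2 with clones K, M and N without any 1 of 24, 7 and 1.

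Of the 11 enzymes from squalene to cholesterol, 10 fell with clones N, T and V and with KPC1, 8 with clone M, 7 with clone H, 4 with clone K and 2 with clone E. Sqle, the squalene epoxidase and a rate-limiting step, stood at 292, 343, 349.9 and 372 CPM in mono-culture. With clone E, Sqle was at 330, 301, 285 and 254 CPM, with clone H at 263, 222, 226 and 195, with clone K at 284, 288, 335 and 241, and with clone M at 239, 252, 234 and 223. With clone N, Sqle was at 228, 243, 214 and 195 CPM, with clone T at 263, 149.5, 197 and 231, with clone V at 153, 163, 171 and 212, and with KPC1 at 176, 80.3, 170.3 and 189. The lowest value, in KPC1 replicate 2, was less than that of any other library, and with clones E and K the ranges met those of mono-culture. Sqle fell in 6 co-cultures, from a log2 fold change of -0.52 with clone M (SE 0.17, adjusted p = 0.028) to -1.14 with KPC1 (SE 0.17, adjusted p = 1.8e-06). It was at -0.21 with clone E (adjusted p = 0.38) and -0.24 with clone K (adjusted p = 0.36). The call for Sqle with clone M was lost without mono-culture replicate 2, 3 or 4 or clone M replicate 1, 3 or 4, with an adjusted p of up to 0.0746.

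Hsd17b7, a ketoreductase of the late pathway, showed the second widest range among the 8 co-cultures. Hsd17b7 stood at 55.6, 66.8, 75.8 and 74.6 CPM in mono-culture. With clone E, Hsd17b7 was at 64.2, 64.8, 67.2 and 54.3 CPM, with clone H at 48.02, 40.9, 47.4 and 33.7, with clone K at 63.2, 62.01, 80.6 and 55.2, and with clone M at 54.9, 52.3, 55.6 and 47.1. With clone N, Hsd17b7 was at 46.8, 60.98, 46.1 and 34.5 CPM, with clone T at 46.8, 25.5, 36.7 and 40.7, with clone V at 22.99, 23.01, 27.9 and 43.4, and with KPC1 at 23.3, 13.7, 32.2 and 29.8. With clones E and K its libraries overlapped those of mono-culture, and with clone V and KPC1 all 8 lay below them. Hsd17b7 had log2 fold changes of -0.12 with clone E and -0.06 with clone K (adjusted p = 0.71 and 0.88), and fell by -1.22 with clone V and -1.46 with KPC1 (SE 0.21 each, adjusted p = 1.4e-05 and 1.1e-06). The call for clone N (-0.53, adjusted p = 0.042) was lost without mono-culture replicate 2, 3 or 4 or clone N replicate 1, 3 or 4 or clone T replicate 3, with an adjusted p for Hsd17b7 of up to 0.16.

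Tm7sf2, a sterol reductase whose reaction Lbr can also carry out, fell in 4 co-cultures. Tm7sf2 stood at 24.3, 31.2, 27 and 30.5 CPM in mono-culture. With clone E, Tm7sf2 was at 24.5, 23.9, 20 and 16.5 CPM, with clone H at 24.97, 17.3, 19.9 and 20.7, with clone K at 16.9, 17.9, 22.5 and 17.3, and with clone M at 23.3, 22.5, 23.4 and 15.6. With clone N, Tm7sf2 was at 14.9, 16.8, 12.8 and 12.3 CPM, with clone T at 22.2, 10.4, 14.5 and 20.3, with clone V at 10.8, 8.91, 10.9 and 15.6, and with KPC1 at 13.8, 6.69, 17.7 and 14.9. Of the 32 co-culture libraries, 30 were below those of mono-culture, and replicate 1 of clones E and H overlapped them. The test called Tm7sf2 lower with clones N, T and V and with KPC1, by log2 fold changes of -0.75 (clone T, SE 0.22, adjusted p = 0.0053) to -1.29 (clone V, SE 0.22, adjusted p = 1.1e-05). With clones E, H, K and M, Tm7sf2 was at -0.41 to -0.60 and not called.

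Among the remaining late enzymes, Msmo1, the methyl sterol oxidase, fell in all 8 co-cultures (-0.48 to -0.94), and its 32 co-culture libraries all lay below the mono-culture libraries. Fdft1, squalene synthase, fell in 7 with little spread among them (-0.55 to -0.79 where called), and so did Ebp, the sterol isomerase (-0.41 to -0.65). Lss, lanosterol synthase, Nsdhl, a decarboxylating dehydrogenase, and Sc5d, a desaturase, each fell in 6. Dhcr7, the reductase that finishes cholesterol, fell in 5 and reached -1.26 with clone V. Some of these calls rested on single libraries, and for Ebp the clone K call was lost without clone K replicate 1 or 2 and the clone T call without clone T replicate 2 or 3. For Nsdhl the clone H and clone M calls were lost without any 1 of 6 and of 7 libraries, and for Sc5d the clone H and clone N calls without any 1 of 23 and of 2. Cyp51, the lanosterol demethylase, stood apart, with a call only for clone M (-0.56, SE 0.13, adjusted p = 0.0018) and log2 fold changes of -0.27 to 0.06 elsewhere. Only 12 of 32 co-culture libraries had Cyp51 below all of mono-culture.

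The 3 genes of sterol control and transport were called with 8, 0 and 4 of the lines. Insig1, whose protein restrains SREBP, fell with every line, within a narrow range. Insig1 stood at 373, 435, 452 and 402 CPM in mono-culture. With clone E, Insig1 was at 228, 207, 197 and 207 CPM, with clone H at 221, 201, 233 and 200, with clone K at 218, 226, 270.1 and 200.4, and with clone M at 189, 168, 166 and 149.5. With clone N, Insig1 was at 164, 176, 178 and 211 CPM, with clone T at 241, 155, 187 and 198, with clone V at 152, 151, 225 and 184, and with KPC1 at 236, 121, 194 and 232. All 32 co-culture libraries lay below the 4 mono-culture libraries, and the highest of them, clone K replicate 3, was well short of the lowest mono-culture library. Log2 fold changes of Insig1 ran from -0.86 (clone K, SE 0.15, adjusted p = 9.1e-05) to -1.30 (clone M, SE 0.15, adjusted p = 1.3e-07), a fall of 1.82-fold to 2.47-fold. All 8 of its calls held whichever library was left out, as they did for Fdps, Msmo1 and Acss2.

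Srebf2, the gene of SREBP-2, was not called in any co-culture. Srebf2 stood at 676, 759, 753 and 873 CPM in mono-culture. With clone E, Srebf2 was at 756, 776, 738 and 622 CPM, with clone H at 870, 726, 769 and 589.7, with clone K at 712, 744, 798 and 570, and with clone M at 729.8, 717, 677 and 548. With clone N, Srebf2 was at 602, 771, 698 and 663 CPM, with clone T at 738, 801, 756 and 679.7, with clone V at 547, 745, 692 and 668, and with KPC1 at 895, 685, 757 and 635. The ranges overlapped in every co-culture, and 9 of 32 libraries lay below all of mono-culture. Srebf2 had log2 fold changes between -0.04 (clone T, SE 0.13) and -0.21 (clone V, SE 0.13, adjusted p = 0.16), and 0 of 8 reached an unadjusted p under 0.05 in edgeR or DESeq2. Limma-trend on RPKM, which has no scaling beyond library size, called 1 of the 8 and gave an unadjusted p under 0.05 for 3. Stard4, a soluble sterol carrier, fell in 4 co-cultures (M, T, V and KPC1), by -0.36 to -0.54. The Stard4 calls with clones M and V were lost without mono-culture replicate 2 or 4 or clone M replicate 1, 3 or 4 and without mono-culture replicate 4 or clone V replicate 1 or 2, respectively.

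**Figure D2:**
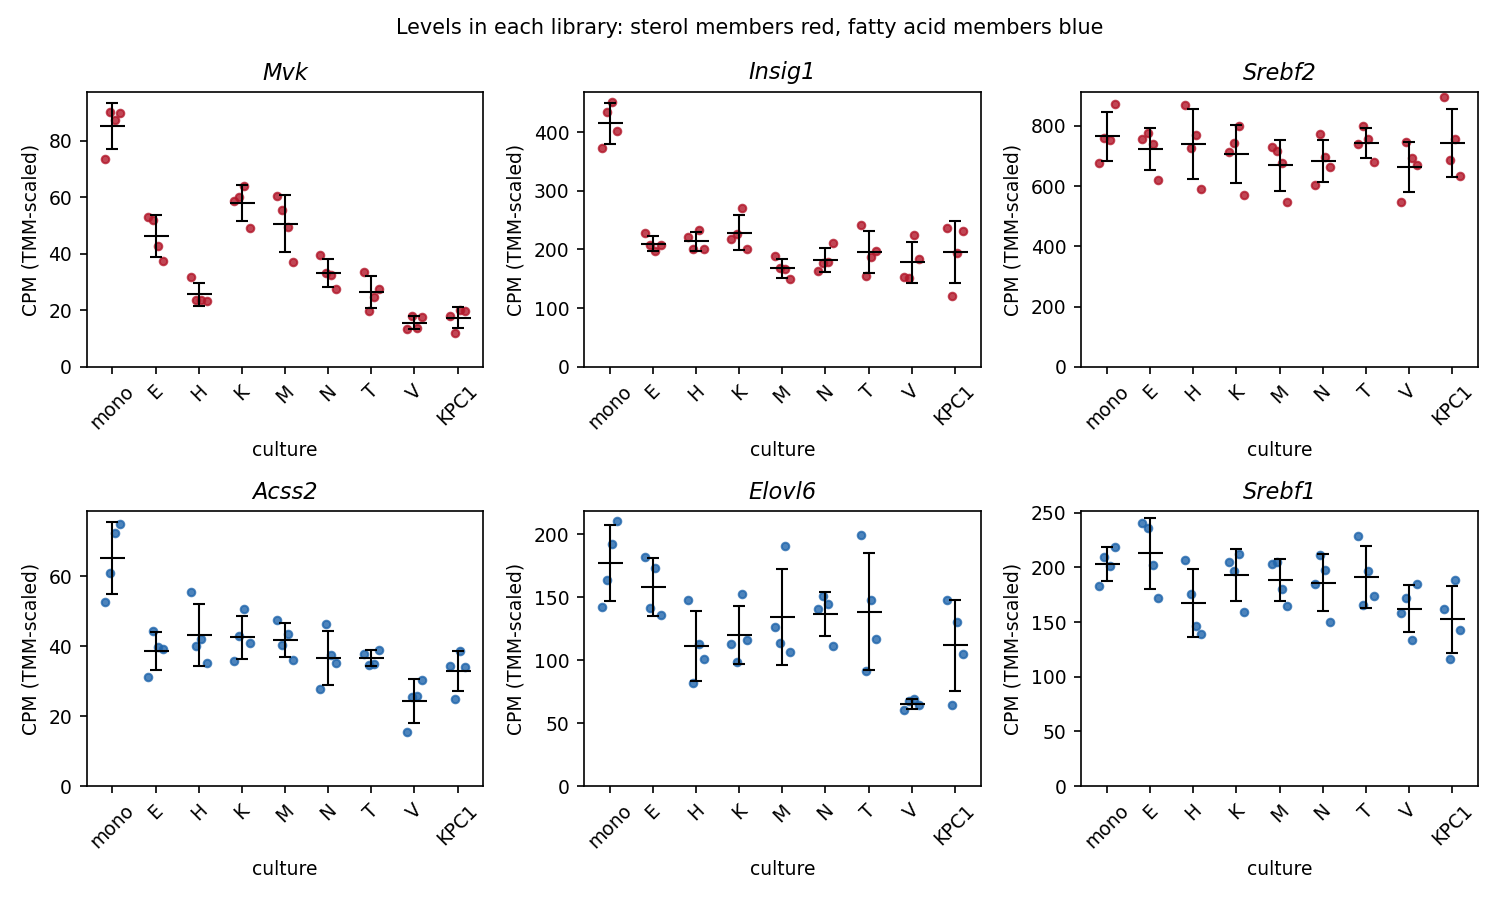
CPM of 6 members in each of the 36 libraries. Points are libraries, horizontal bars and whiskers the mean and SD of 4, sterol members are red and fatty acid members blue, and each axis starts at 0. The means of Mvk run from 57.9 with clone K to 15.7 with clone V, Insig1 lies between 121 and 270.1 CPM with every line, Srebf2 and Srebf1 overlap mono-culture, and Elovl6 is lowest with clone V, at 60.3 to 69.5 CPM.

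In the fatty acid branch, Acss2 and Acly, which supply acetyl-CoA, fell with all 8 lines, and Fasn and Acaca, which build on it, with 2 and 1. Acss2, which makes acetyl-CoA from acetate, stood at 52.8, 60.9, 72.5 and 75.01 CPM in mono-culture. With clone E, Acss2 was at 31.4, 44.4, 39.9 and 39.2 CPM, with clone H at 55.7, 40.05, 42.2 and 35.1, with clone K at 35.7, 43.03, 50.6 and 40.9, and with clone M at 47.6, 40.5, 43.4 and 36.1. With clone N, Acss2 was at 27.7, 46.2, 37.5 and 35.3 CPM, with clone T at 37.9, 34.6, 34.96 and 39.1, with clone V at 15.6, 25.6, 25.8 and 30.3, and with KPC1 at 34.5, 24.96, 38.6 and 33.99. Of the co-culture libraries, 31 of 32 lay below mono-culture, with clone H replicate 1 as the exception. Acss2 fell by -0.59 on the log2 scale with clone H (SE 0.17, adjusted p = 0.0035) to -1.43 with clone V (SE 0.17, adjusted p = 3.7e-08), or 1.51-fold to 2.69-fold.

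Acly, which makes acetyl-CoA from citrate, stood at 614, 698, 807 and 835 CPM in mono-culture. With clone E, Acly was at 590.3, 534, 527 and 484 CPM, with clone H at 623, 559.6, 608 and 453, with clone K at 479, 460.2, 558 and 484, and with clone M at 517, 491, 504 and 393. With clone N, Acly was at 425, 482, 409 and 412 CPM, with clone T at 505, 378, 425 and 427, with clone V at 289, 285, 357 and 447, and with KPC1 at 435, 274, 462 and 418. All but 1 of the 32 co-culture libraries had less Acly than any mono-culture library. Acly fell in all 8, from -0.40 with clone H (SE 0.14, adjusted p = 0.020) to -1.10 with clone V (SE 0.14, adjusted p = 1.5e-07). The clone H call was lost without mono-culture replicate 3, mono-culture replicate 4 or clone H replicate 4, with an adjusted p for Acly of up to 0.0876. Me1, the malic enzyme that supplies NADPH, was called with clone M only, at -0.25 (SE 0.07, adjusted p = 0.012, or 0.0586 without clone M replicate 3), and lay between -0.09 and 0.11 elsewhere.

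Srebf1, the gene of SREBP-1, stood at 183, 209.9, 201 and 219 CPM in mono-culture. With clone E, Srebf1 was at 241, 236, 202 and 172 CPM, with clone H at 207, 176, 146 and 139, with clone K at 204, 197, 212 and 159, and with clone M at 204, 205, 180.5 and 165. With clone N, Srebf1 was at 185, 211, 198 and 150 CPM, with clone T at 229, 165, 197 and 174, with clone V at 158, 172, 134 and 185, and with KPC1 at 162, 117, 188 and 143. Its co-culture libraries lay on both sides of mono-culture, 16 of 32 below it. Only KPC1 gave a call for Srebf1, at -0.41 (SE 0.14, adjusted p = 0.014), and without KPC1 replicate 2 the adjusted p was 0.0841.

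Fasn, the synthase that assembles palmitate, stood at 883, 970.1, 1088 and 1090 CPM in mono-culture. With clone E, Fasn was at 968, 925, 972 and 735 CPM, with clone H at 952, 850.4, 853 and 503, with clone K at 812, 773, 876 and 564, and with clone M at 918, 902, 1008 and 565. With clone N, Fasn was at 676, 926, 758 and 672 CPM, with clone T at 952, 752, 889 and 573, with clone V at 558, 619, 612 and 685, and with KPC1 at 744, 361, 911 and 695. With clones K and V all 4 libraries lay below mono-culture, and with clones E and M 3 of 4 overlapped it. Fasn fell with clone V (-0.70, SE 0.21, adjusted p = 0.0049) and KPC1 (-0.57, SE 0.21, adjusted p = 0.020), and lay between -0.16 and -0.41 in the others without a call. The KPC1 call for Fasn was lost without mono-culture replicate 4 or KPC1 replicate 2, with an adjusted p of up to 0.118. Acaca, the carboxylase that makes malonyl-CoA, was called with clone N only, at -0.44 (adjusted p = 0.042), a call lost without mono-culture replicate 2, 3 or 4 or clone N replicate 1, 3 or 4 (adjusted p up to 0.149).

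Elovl6, which lengthens palmitate to stearate, stood at 143, 164, 193 and 211 CPM in mono-culture. With clone E, Elovl6 was at 182, 142, 173 and 136 CPM, with clone H at 148, 82.3, 113 and 101, with clone K at 113, 98.6, 152 and 116, and with clone M at 126, 114, 191 and 107. With clone N, Elovl6 was at 141, 151, 145 and 111 CPM, with clone T at 199, 91.3, 148 and 117, with clone V at 60.3, 67.6, 69.5 and 64.1, and with KPC1 at 148, 64.1, 130.2 and 105. With clone V the 4 libraries lay close together and below every other library except KPC1 replicate 2. Elovl6 fell with clone V by -1.44 (SE 0.23, adjusted p = 3.4e-06), a 2.71-fold difference. With clone H (-0.68) and KPC1 (-0.67) the adjusted p for Elovl6 was 0.011, rising to 0.0532 without clone H replicate 2 and to 0.0661 without KPC1 replicate 2.

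Scd1 and Scd2, the desaturases that make oleate, are close copies, and reads shared between them could have been split in counting. Scd1 stood at 771, 872, 964 and 1017 CPM in mono-culture. With clone E, Scd1 was at 905, 905, 827 and 676 CPM, with clone H at 914, 701, 748 and 585, with clone K at 698, 675, 921 and 629, and with clone M at 736, 709.8, 740 and 517. With clone N, Scd1 was at 637, 858, 688 and 679 CPM, with clone T at 917, 781, 789.8 and 751, with clone V at 446, 567, 542 and 554, and with KPC1 at 845, 574, 772 and 658. The libraries of clones M and V lay below all of mono-culture. Scd1 fell with clone V (-0.78, SE 0.15, adjusted p = 3.1e-05), clone M (-0.42, adjusted p = 0.032) and KPC1 (-0.35, adjusted p = 0.039). The clone M call for Scd1 was lost without mono-culture replicate 2, 3 or 4 or clone M replicate 4, and the KPC1 call without mono-culture replicate 2, 3 or 4 or KPC1 replicate 2 or 4, with an adjusted p of up to 0.162.

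Scd2 was the most abundant member per length, at 780 RPKM in mono-culture against 196 RPKM for Scd1. Scd2 stood at 3389, 4266, 3976 and 4681 CPM in mono-culture. With clone E, Scd2 was at 4542, 3989, 3289 and 2664 CPM, with clone H at 3416, 2674, 2525 and 1885, with clone K at 4011, 3806, 4901 and 2917, and with clone M at 3576, 3753, 3320 and 2279. With clone N, Scd2 was at 3296, 3467, 2682 and 2005 CPM, with clone T at 3527, 2304, 2718 and 2311, with clone V at 1744, 2582, 2094 and 2132, and with KPC1 at 2574, 1621, 2525 and 1909. With clones E and K it overlapped the mono-culture range, and with clone V and KPC1 every library was below it. Scd2 fell in 5 co-cultures (H, N, T, V and KPC1), by -0.51 with clone N (adjusted p = 0.048) to -0.93 with clone V (SE 0.21, adjusted p = 0.00028). The call for Scd2 with clone N was lost without any 1 of 16 libraries, and that with clone T without mono-culture replicate 4 or clone T replicate 2 or 4. Fads1 and Fads2, which desaturate polyunsaturated fatty acids, fell in 8 and 4 co-cultures, by at most -0.55 and -0.66. The Fads1 calls with clones E, H, K and M had an adjusted p of 0.035 to 0.049 and were lost without any 1 of 19, 5, 27 and 10 libraries, and the Fads2 calls with clones T and V without mono-culture replicate 4.

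The branches were then compared over the 9 groups. The sterol median lay below the fatty acid median with every line. The median log2 fold change of the 21 sterol members was -0.39 with clone E, -0.48 with clone H, -0.56 with clone K, -0.60 with clone M, -0.67 with clone N, -0.75 with clone T, -1.04 with clone V and -0.95 with KPC1. The median of the 11 fatty acid members was -0.17 with clone E, -0.30 with clone H, -0.31 with clones K and M, -0.44 with clone N, -0.36 with clone T, -0.70 with clone V and -0.57 with KPC1. Over all genes tested the median lay between -0.01 and 0.01. The sterol minus fatty acid difference lay between -0.18 (clone H, or -0.12 without its replicate 1) and -0.39 (clone T). With clone V it was -0.34, but -0.21 when means over the members replaced the medians. No p is given for this difference, because the members were chosen with results known.

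**Figure D3:**
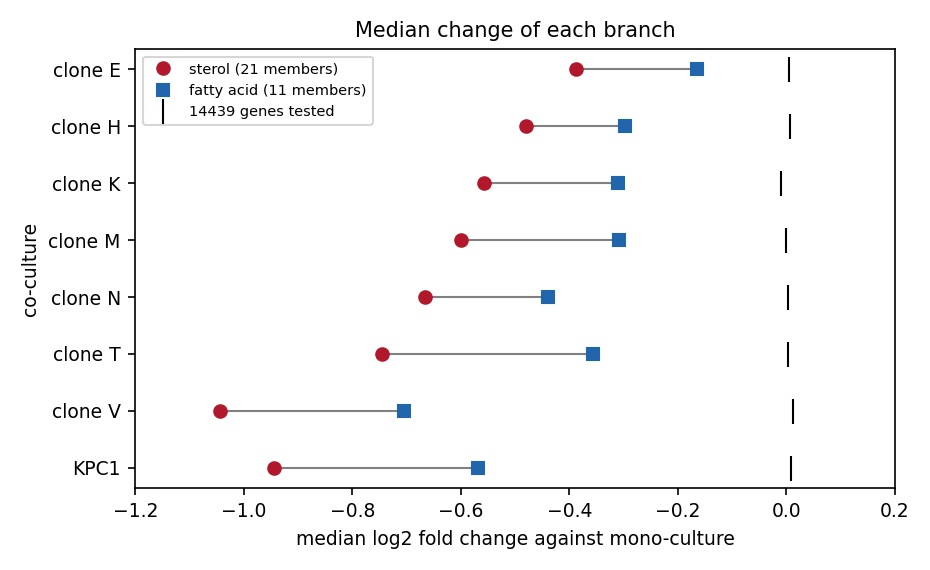
Median log2 fold change against mono-culture of the 21 sterol members (red circles), the 11 fatty acid members (blue squares) and the 14439 genes tested (black ticks), for each co-culture. The red circle lies left of the blue square in each of the 8 rows, and both lie left of the ticks near 0.

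Per library, the mean log2 CPM of a branch gave the spread behind these medians. The sterol mean was 7.30, 7.51, 7.55 and 7.59 in mono-culture, and between 5.86 and 7.27 in the co-cultures, where all 32 libraries lay below mono-culture. The fatty acid mean was 8.38, 8.58, 8.64 and 8.75 in mono-culture, and 27 of 32 co-culture libraries lay below it. The sterol mean minus the fatty acid mean was between -1.16 and -1.06 in mono-culture and below that range in 28 of 32 co-culture libraries. It averaged -1.10 ± 0.0424 (SD, n = 4) in mono-culture, -1.23 ± 0.122 with clone H and -1.43 ± 0.199 with clone T.

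Libraries of 1 group often moved as a whole. KPC1 replicate 2 was the lowest of its group for 20 of 21 sterol and 9 of 11 fatty acid members, with a sterol mean of 5.86 against 6.75, 6.77 and 6.86 in the other KPC1 libraries. Its total was 16846535 counts, and 16907 genes had a count, the fewest of the 36 libraries. Its epithelial marker sum of 182 CPM and its fibroblast marker sum of 12754 CPM were each the lowest of the 4. Its endothelial marker sum, 5.73 CPM, was the highest of any library. Without KPC1 replicate 2 the KPC1 medians were -0.74 for the sterol and -0.44 for the fatty acid members, with 18 and 5 calls in place of 18 and 9. Clone K replicate 3 was the highest of its group for 21 of 21 sterol and 11 of 11 fatty acid members. Replicate 4 was the lowest for 19 and 10 members with clone M, 18 and 10 with clone E, 16 and 9 with clone H and 12 and 8 with clone K. With clone N replicate 4 was the lowest for 8 and 7 members. It was the lowest for only 1 and 3 with clone T, 2 and 1 with clone V, and 1 and 1 with KPC1. Fatty acid calls fell from 5 to 3 with clone H without mono-culture replicate 3 or 4 or clone H replicate 4, with clone M without mono-culture replicate 2, 3 or 4 or clone M replicate 3 or 4, and with clone T without mono-culture replicate 4.

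**Figure D4:**
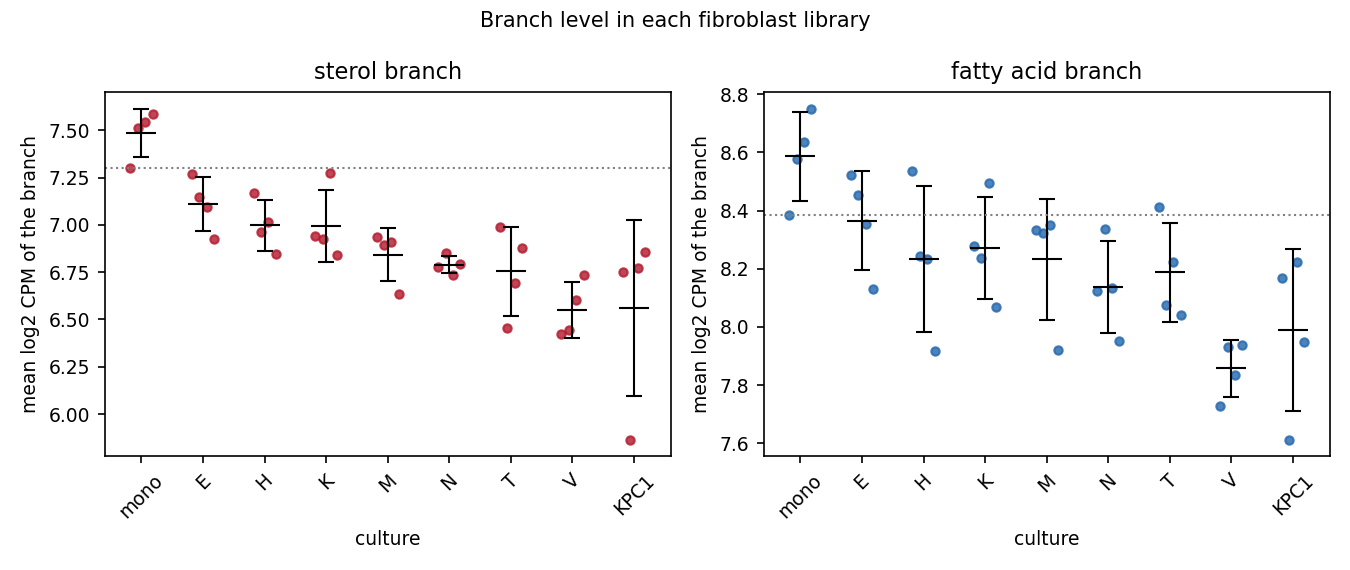
Mean log2 CPM of the sterol branch (left) and the fatty acid branch (right) in each of the 36 libraries, by culture. Points are libraries, bars and whiskers the mean and SD of 4, and the dotted line marks the lowest mono-culture library. Every co-culture point lies under the line for the sterol branch, 5 lie above it for the fatty acid branch, and the lowest point in both is KPC1 replicate 2, at 5.86 and 7.61.

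The second comparison asked whether these genes depended on which clone the fibroblasts had met. Among the 7 clones, edgeR's F-test called 22 of the 32 members, near the 67.5% of all genes called, so the count says nothing particular about them. Mvk had the smallest adjusted p (4.1e-10), followed by Dhcr7 (5.3e-05), Hsd17b7 (0.00016), Elovl6 (0.00064) and Pmvk (0.00077). Insig1, which fell with every clone, was not called (adjusted p = 0.084), nor were Fdft1 (0.42) and Srebf2 (0.77).

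Of the 28 pairs of co-cultures, Mvk was called in 18, Hsd17b7 in 13, Dhcr7 in 10, and Sqle and Scd2 in 8 each, whereas Insig1, Fdft1 and Fasn were called in 1 each. The share of all genes called in a pair ran from 0.388% to 57.9%. From high to low, the mean of Mvk was 57.9 ± 6.35 CPM with clone K, 50.6 ± 10.03 with clone M, 46.2 ± 7.47 with clone E, 33.2 ± 4.91 with clone N, 26.4 ± 5.76 with clone T, 25.6 ± 4.09 with clone H, 17.4 ± 3.79 with KPC1 and 15.7 ± 2.43 with clone V (SD, n = 4). No neighbouring pair in this order was called, the closest being clone H and KPC1 (log2 difference 0.56, SE 0.17, adjusted p = 0.064), which was called with the replicate number as a block (adjusted p = 0.043). Clone T exceeded KPC1 (0.60, SE 0.17, adjusted p = 0.033).

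Clones E and V differed in more members than any other pair. All 22 called between them were higher with clone E, against 21.7% of all genes, 15 in the sterol and 7 in the fatty acid branch. Clone E exceeded KPC1 for 15 members (19.8% of all genes), and clone K exceeded clone V for 13 (28.1%). Clones M and V differed in 16, with 13 higher and 3 lower with clone M (29.7% and 28.3% of all genes). Clones H and V differed in 2, Acss2 and Acly, both higher with clone H by edgeR (adjusted p = 0.019 for each), where 0.388% of all genes were called, and in 7 with the replicate block, where 0.983% of all genes were. Between clones E and N, H and T, K and M, and N and T, edgeR called 0 members, and 12, 8, 5 and 0 had an unadjusted p under 0.05. The shares of all genes called there were 1.27%, 7.58%, 2.24% and 8.53%. With the replicate block 1 member was called in each of the first 3 of these pairs, namely Fads2, Stard4 and Cyp51, and 0 between clones N and T.

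KPC1 was also set against the mean of the 7 clones. The 7 members called were lower with KPC1, against 18.8% of all genes called lower, and none was higher, also at an unadjusted p under 0.05, where 22.3% of all genes were. They were Mvk (-0.95, SE 0.14, adjusted p = 4.6e-06), Hsd17b7 (-0.91, SE 0.17), Sqle (-0.59, SE 0.14), Dhcr7 (-0.33, SE 0.13), Stard4 (-0.27, SE 0.11), Scd2 (-0.46, SE 0.16) and Srebf1 (-0.28, SE 0.11). The count is near the background and moved both ways, to 14 with either limma-trend fit, 10 with DESeq2 and 10 with the replicate number as a block, and to 4 with no filter and 4 without KPC1 replicate 2. It was also 4 without any 1 of 11 other libraries, namely mono-culture replicate 1, clone E replicates 1 and 2, clone H replicate 1, clone K replicate 3, clone M replicates 1 and 2, clone N replicates 1 and 3, clone T replicate 1, and clone V replicate 4. Directly against clone V, KPC1 differed in 2 members, Elovl6 and Scd1, both lower with clone V (log2 differences -0.77 and -0.43, adjusted p = 0.026 and 0.049), where 10.7% of all genes were called.

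Other genes of these pathways were read from lists of 2 to 14 genes, 32 in all. The mean of the 7 clones had 24.9% of all genes called lower and 24.3% called higher against mono-culture. Of 2 further genes of sterol synthesis, Lbr, a sterol reductase of the nuclear envelope, rose with the mean of the 7 clones (0.20, SE 0.08, adjusted p = 0.031). Lbr was called higher with clones H (0.59), T (0.29) and V (0.64) and with KPC1 (0.39). Lbr was not called with clones E (0.11), K (-0.24), M (-0.15) and N (0.19). Ggps1, which makes geranylgeranyl diphosphate, was at 0.13 in that mean (SE 0.06, adjusted p = 0.075). Ggps1 was also called higher with clones H (0.23), T (0.22) and V (0.36) and with KPC1 (0.39). It was not called with clones E (0.16), K (-0.04), M (-0.11) and N (0.13). Of 8 genes of uptake and SREBP control, 2 fell and 1 rose with the mean of the clones. Mylip, a ubiquitin ligase induced by LXR, fell (-0.58, SE 0.11, adjusted p = 7.8e-05), as did Npc2, a lysosomal sterol carrier (-0.28, SE 0.11, adjusted p = 0.039). Neither fall was general, since 0 of these 8 genes were called with clone E and 0 with clone K. Tmem97, a sterol-responsive membrane protein, rose (0.30, SE 0.11, adjusted p = 0.022), but not with every clone. The log2 fold change of Tmem97 was 1.10 with clone V and 1.04 with KPC1 (SE 0.14 each), while with clone M the gene fell (-0.47, SE 0.14, adjusted p = 0.016).

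Of 8 genes of efflux, esterification and LXR, 3 rose and 1 fell with the mean of the clones. Ch25h, the enzyme that makes 25-hydroxycholesterol, an oxysterol that holds SREBP back, rose more than any other gene of these lists. Ch25h stood at 1.43, 1.32, 0.989 and 0.411 CPM in mono-culture. With clone E, Ch25h was at 20.2, 15.2, 10.3 and 11.4 CPM, with clone H at 15.9, 27.6, 20.2 and 11.04, with clone K at 14.7, 12.9, 6.87 and 4.28, and with clone M at 9.74, 12.5, 8.25 and 12.1. With clone N, Ch25h was at 28.4, 19.4, 20.1 and 19.3 CPM, with clone T at 9.38, 14.01, 8.09 and 9.13, with clone V at 21.2, 46.5, 21.4 and 25.3, and with KPC1 at 21.2, 25.9, 9.49 and 13.2. All 32 co-culture libraries lay above the 4 mono-culture libraries. Its log2 fold change was 3.23 (clone K, SE 0.44, adjusted p = 3.6e-06) to 4.80 (clone V, SE 0.44, adjusted p = 4.5e-10). Apoe, an apolipoprotein that carries cholesterol out of cells, rose as well (1.23, SE 0.31, adjusted p = 0.0014). It went from 0.843 ± 0.33 CPM in mono-culture (SD, n = 4) to a highest group mean of 4.11 ± 1.19 CPM with clone M. Abca1, the efflux pump, was at 0.44 (SE 0.22, adjusted p = 0.095) in the mean of the clones, with rises for clones E, K, M and N of 0.72 to 1.42, and lay at -0.65 and -0.62 without a call for clones H and V.

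Of 14 further fatty acid genes, 3 fell and 2 rose with the mean of the clones. Gpam, the mitochondrial acyltransferase that begins glycerolipid synthesis, fell in all 8 co-cultures, by -0.56 with clone M to -1.38 with KPC1. Gpam stood at 58.1, 57.98, 56.1 and 71.03 CPM in mono-culture, and its highest co-culture library, clone M replicate 2, was at 49.1 CPM. Mlycd, which breaks down malonyl-CoA, fell (-0.59, SE 0.10, adjusted p = 2.5e-05), and so did Tecr, the last reductase of elongation (-0.35, SE 0.06, adjusted p = 4.1e-05), which was called with all 8 lines.

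**Figure D5:**
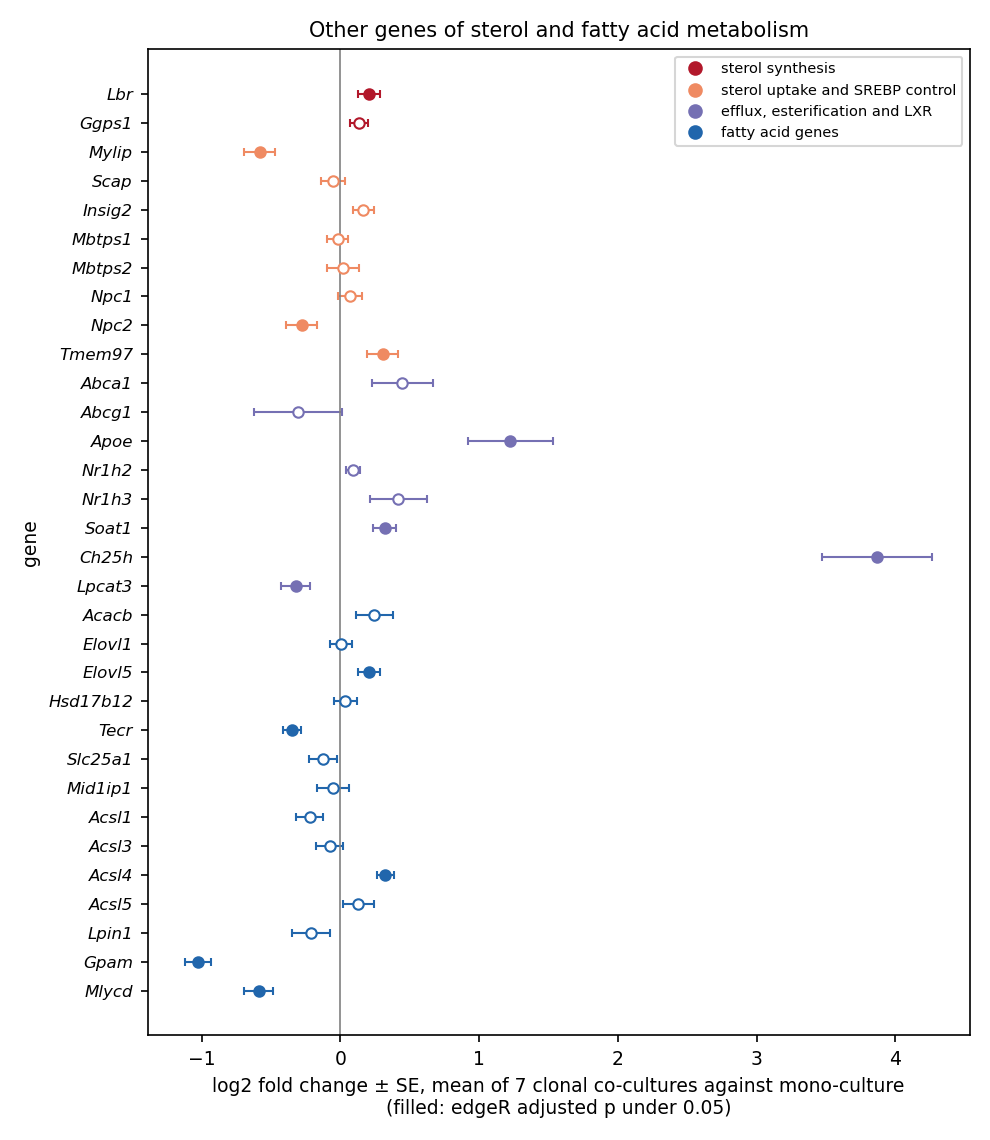
Log2 fold change of the mean of the 7 clonal co-cultures against mono-culture for 32 other genes of sterol and fatty acid metabolism, coloured by list. Points are estimates, bars are 1 SE and filled points have an adjusted p under 0.05 in edgeR. Ch25h stands far to the right at 3.87, Apoe at 1.23, and Gpam lies furthest left at -1.02.

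Counts of 8 members could hold reads of an overlapping protein-coding gene in GENCODE M21, namely Mvd, Fdps, Fdft1, Cyp51, Tm7sf2, Srebf1, Acss2 and Acaca. The kit kept strand, but whether counting used it is not given in the sources used here.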

How the data were processed

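RNA of sorted mouse fibroblasts was turned into poly(A) libraries with a strand-specific kit (200 ng of RNA, 14 cycles) and sequenced as pairs of 76 bases, per the labels. The submitters' processing notes name STAR, featureCounts, edgeR and mm10, and versions are not given in the sources used here. The authors deposited raw counts for 39017 genes in 36 libraries and, in a second table, RPKM values per the file headers for 37746 genes. Library totals were 12532122 to 21985538 counts, and no sample column was left unmapped.

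Tests were run in edgeR 4.0.16 (R 4.3.3) with filterByExpr, TMM scaling and a robust quasi-likelihood fit over all 9 groups. Adjusted p-values are Benjamini-Hochberg values over the 14439 genes tested, with 0.05 as the threshold, and a gene was called when it passed. SE is the log2 fold change over the root of F. Branch scores are means of log2 CPM with a prior count of 1. No 2 libraries of a group agreed within sampling noise (lowest chi-square per degree of freedom 5.53).

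The members, lists and named genes were chosen with earlier results of these data known. Values in every library were given for Hmgcs1, Sqle, Insig1, Srebf2, Srebf1, Fasn, Scd1 and Scd2, and for the 3 further members of each branch whose group means ranged most. Of the other pathway genes, at most 3 of each list with the largest change in the mean of the 7 clones were named, and some genes are not reported here. On simulated data for clone E against mono-culture (14333 genes, 200 of them changed 2-fold), edgeR recovered 72% with 8 false calls. DESeq2 recovered 74.5% with 21 false calls. In the real data 16.5% of genes were called higher and 15.5% lower with clone E, a far larger share, so these rates may not carry over. The 9 alternatives to the fit were DESeq2 1.42.0, limma-trend (limma 3.58.1) on log2(RPKM + 1) and on log2(RPKM + 0.1), RLE scaling, no scaling, no filter, a minimum of 10 counts, only the groups compared, and a replicate block. Each library was also left out in turn, and branch differences were also taken over means. Promoter windows came from RefSeq (GRCm38.p6) and overlapping genes from GENCODE M21.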

Additional observations from a re-analysis of the deposited data

Results flagged for a closer look

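In each group of 4 libraries, the gap from the farthest library to its neighbour was divided by the range of the group and set against Dixon's critical value. Of 144 sets of values, 8 exceeded it, where chance gives 7.2 (1 in 20). Clone M replicate 4 accounted for 4 of these. Its sterol mean was 6.63 log2 CPM against 6.89 to 6.93 in the other 3 libraries (ratio 0.8658), and its fatty acid mean was 7.92 against 8.32 to 8.35 (0.9311). In the same library Scd1 was at 517 CPM against 709.8 to 740.0 (0.8646) and Tm7sf2 at 15.6 CPM against 22.5 to 23.4 (0.8764). KPC1 replicate 2 had a sterol mean of 5.86 against 6.75 to 6.86 (0.8905).

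Hmgcs1 was high in clone K replicate 3, at 499 CPM against 365 to 377 (0.9082). Mvk was low in mono-culture replicate 1, at 73.3 CPM against 87.3 to 90.1 (0.8328), and high in clone H replicate 1, at 31.7 CPM against 23.4 to 23.7 (0.9695).

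Of the 14 members given in every library, 10 differed among the 7 clonal co-cultures by edgeR's F-test, beside 67.5% of all genes. Among them Mvk, Hsd17b7, Tm7sf2, Acss2, Elovl6 and Acly were picked because their group means ranged most in these data. Their calls largely follow from that choice, so no support is drawn from this count. The adjusted p was 4.052e-10 for Mvk, 0.0001609 for Hsd17b7 and 0.0006354 for Elovl6. For Acly it was 0.001743, for Acss2 0.001768 and for Hmgcs1 0.001777. For Sqle it was 0.004055, for Tm7sf2 0.00493, for Scd1 0.005781 and for Scd2 0.006433.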

How the results depend on the processing

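No member called against mono-culture changed direction under any of the 9 alternatives or without any 1 of the 36 libraries. Of the 164 calls, 14 were lost with no filter, 2 with only the groups compared (Idi1 with KPC1 and Fads1 with clone H), and 0 under the other 7. Without single libraries 33 were lost, with 23 lost without mono-culture replicate 4 alone. The count of members lower in KPC1 than in the mean of the clones, 7, was 4 with no filter, 14 with limma-trend on log2(RPKM + 1), 14 on log2(RPKM + 0.1), 10 with DESeq2, and 4 to 8 without single libraries. The cause was not tested. Taken as means over members in place of medians, the sterol minus fatty acid difference was -0.16 for clone E, -0.17 for K and -0.21 for V, and the median for clone E lay between -0.27 and -0.15 without single libraries. As the change in the per-library branch means, the difference was smallest for clone H, at -0.13. Leaving out scaling moved the median of all genes by at most 0.1 on the log2 scale.

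The groups share replicate numbers. The titles number the co-culture libraries in sets by replicate, with mono-culture apart, and name no shared culture or day. Deviations of same-numbered libraries correlated at -0.58 to 0.69. Between co-cultures 63 of 112 correlations were above 0.1 and 55 were higher than with any other number, against 5 and 7 of 32 with mono-culture, a hint from the data of shared sets among the co-cultures. All 4 correlations were above 0.1 in 3 of 36 pairs of groups (clones E and K, clones K and V, and clone T and KPC1), where the replicate block gave 1, 16 and 1 calls in place of 1, 13 and 1. With the block none of the 164 calls against mono-culture was lost, and the clone E difference was -0.20. Mono-culture is numbered apart, so the block cannot adjust these results for a set, and no support is drawn from them. The count for KPC1 against the clones was 10 with the block. For pairs of co-cultures the block was added after the data were seen. It gave 6 calls in place of 1 between clone H and KPC1, 6 in place of 3 between clones E and H, 8 in place of 5 between clones H and N, and 4 in place of 2 between clones K and N.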

Other observations

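Outside the lists, the genes whose log2 CPM followed the sterol mean most closely over the 36 libraries were Aacs (Pearson r = 0.886), Idh1 (0.863), Gcat (0.850), Chpf2 (0.830) and Ang (0.826), among 11630 genes. The libraries share groups and scaling, so these values are descriptions. Aacs, which makes acetoacetyl-CoA from ketone bodies, also headed the fatty acid mean (r = 0.847), followed by Phkb (0.826), Fam63b (0.825), Dag1 (0.824) and Pcdhga9 (0.821). The sterol mean was itself lower in the co-cultures, so a lower level of these genes there largely follows from how they were chosen, and their changes are given without a test. The log2 fold change of Aacs against mono-culture lay between -0.61 with clone E and -1.39 with KPC1. That of Gcat, which breaks down threonine products to glycine, lay between -0.62 with clone H and -1.18 with KPC1, and that of Idh1, a source of cytosolic NADPH, between -0.25 with clone E and -1.05 with clone V.

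Mmab, a gene of cobalamin metabolism chosen after its values were seen, lies head to head with Mvk on chromosome 5, with 208 bases between them in GENCODE M21. Mmab fell with clones H, N, T and V and with KPC1, by -0.61, -0.64, -0.70, -1.05 and -1.02, and was at -0.20, -0.15 and -0.16 without a call with clones E, K and M. In the mean of the 7 clones it was at -0.50 (edgeR adjusted p = 0.00041), where Mvk was at -1.34.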
